A study of Mus musculus with 14 samples.

Results

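The comparison described here set the aortic intima of mice that made progerin in every cell against the intima of mice with wild-type Lmna. Its members were the 7 libraries that carry both genotypes, of 14 libraries in the series, and the 14269 genes of 22430 in the count table that had enough counts to be tested. The ubiquitous progerin group (Apoe-/-LmnaG609G/G609G) had 3 libraries, numbered here as pools 1 to 3. The wild-type control group (Apoe-/-Lmna+/+) had 4 libraries, pools 1 to 4. Mice of both groups lacked functional Apoe, so the control is itself an atherosclerosis-prone mouse and not a healthy one. The G609G allele was on both copies of Lmna and needed no Cre. Each library was made from intima lysates of 12 to 14 mice of the same genotype, obtained by passing lysis reagent through the lumen of the thoracic aorta. A p-value here thus rests on how pools vary, and the variation from mouse to mouse is not seen. For age, sex and diet no label gives a value. The other 7 libraries of the series, used below only for a test of the difference, came from mice with progerin in vascular smooth muscle cells (VSMC; Apoe-/-LmnaLCS/LCS SM22Cre, 3 pools), where Cre is driven by the SM22α promoter, and from their controls with lamin C only (Apoe-/-LmnaLCS/LCS, 4 pools).

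Lamin A and lamin C form, with the B-type lamins, the meshwork under the inner nuclear membrane. Prelamin A is farnesylated and then cut by the protease Zmpste24, which releases mature lamin A. Progerin lacks the site of that last cut, stays farnesylated and stays at the nuclear membrane, and it causes Hutchinson-Gilford progeria, in which atherosclerosis is the main cause of death. The intima is the endothelium-lined inner layer of the artery, exposed to flowing blood. In atherosclerosis it takes up monocytes, which become macrophages and foam cells.

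Lmna itself (GRCm38, GENCODE M21, chromosome 3, 88480147 to 88509956, minus strand) was found at 113, 121, 119 and 125 CPM (counts relative to the library total, after TMM scaling for composition) in the wild-type pools and at 121, 116 and 115 CPM in the progerin pools. The ranges overlapped, and the gene did not pass the test (log2 change -0.02 ± 0.07, standard error). The products of the locus (lamin A, lamin C, progerin) are summed in this value, which therefore does not check the allele. Apoe gave 56.0 to 62.0 CPM in wild-type control and 50.7 to 54.1 CPM in ubiquitous progerin (adjusted p = 0.0872).

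Estimated counts summed to 28242609 to 31978619 per library in wild-type control and to 27169784 to 29309795 in ubiquitous progerin. Fewer genes were detected in wild-type pool 1 (14328) than in pools 2 to 4 of that group (15188 to 15233), and pool 1 stood apart on the third principal component. Mitochondrially encoded genes took 4.6% to 5.42% of the counts in wild-type control and 7.29% to 8.22% in ubiquitous progerin. The summed level of 4 Y-linked genes was 61.7 to 92.1 CPM in wild-type control and 102 to 179 CPM in ubiquitous progerin, so the groups did not overlap in a measure that follows the sex of the pooled mice. The part of these measures in the results was not tested, except that all genes were refitted with the Y-linked level as a covariate (chosen after seeing the data): 6118 genes were then called, of which 5998 were called in the same direction in the fit reported here.

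A gene was called where edgeR's quasi-likelihood test gave a Benjamini-Hochberg adjusted p under 0.05 over all genes tested. By this rule 7784 genes, 54.6% of those tested, differed between the genotypes. Of them 3746 (26.3% of those tested) were higher and 4038 (28.3%) were lower in ubiquitous progerin. The median log2 change over all genes was -0.005. Large changes were mostly rises: at least 4-fold (2 on the log2 scale), 716 genes were higher and 157 lower. In 8054 genes (56.4%) the 3 progerin pools all lay above, or all below, the 4 wild-type pools, and 7239 of those genes were also called. The 36 gene lists described below hold 773 different genes in 798 memberships, of which 775 had enough counts to be tested, and each count of a list stands against these shares. The plot of level against change shows that the largest rises were among genes of low to middle level.

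**Figure D1:**
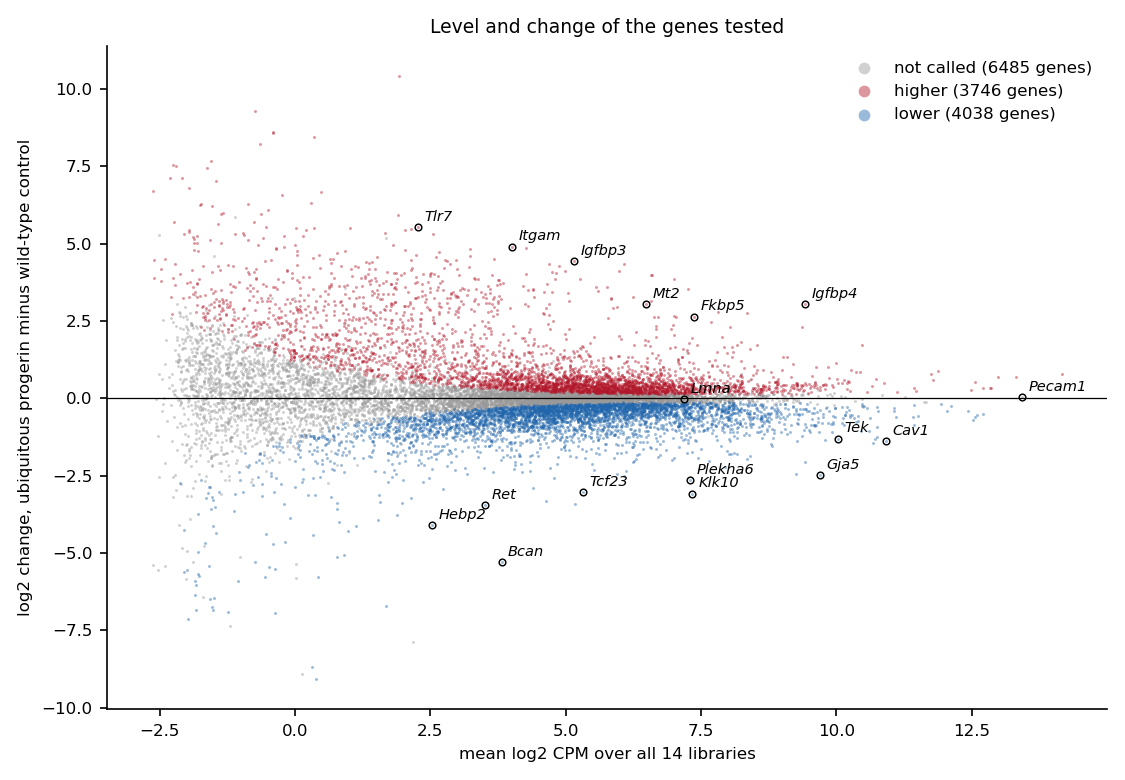
Log2 change (ubiquitous progerin minus wild-type control, y axis) against mean log2 CPM over the 14 libraries (x axis) for each of the 14269 genes tested, coloured by call, with some named genes circled. Rises extend further from 0 than falls; points far from 0 at the left are fitted values of genes with few or no counts in a group and are no measured folds.

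Myeloid genes rose together and by the largest amounts. The pan-myeloid list, like the others, was chosen with earlier results of these data known, so its count describes and does not test. All 26 of its genes passed the count filter, and 26 of 26 were higher. Their median log2 change was 3.54 against -0.005 over all genes. Spi1, which encodes PU.1, the transcription factor that directs cells to the myeloid fate, was at 3.37, 2.15, 1.24 and 2.19 CPM in the wild-type pools and at 31.1, 26 and 26.5 CPM in the progerin pools. The lowest progerin pool was thus well above the highest control pool, and the log2 change was 3.64 ± 0.22. Csf1r, the receptor that macrophages need to survive, went from 4.85 to 7.69 CPM up to 83.1 to 119 CPM. Tlr7, an endosomal sensor of single-stranded RNA, had the largest rise of the genes named by rule, from 0.213, 0.256, 0.358 and 0.667 CPM to 20.2, 17.5 and 14.7 CPM (5.52 ± 0.31, adjusted p = 2.6e-11 by edgeR). In these bulk lysates, more cells of a type and more RNA per cell cannot be told apart, nor can fewer cells and less RNA per cell.

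Among the rest of the rule's 12 largest rises were further genes of myeloid cells: the lectin receptors Clec4a2, Clec4n and Mrc1, the integrin Itgam, the chemokine receptor Ccr1, the sialic acid-binding receptor Cd33, the adaptor Sla and Rgs1, a regulator of G protein signalling. The other members were Galnt6, a glycosyltransferase (log2 change 4.72), Slc7a8, an amino acid transporter (4.63), and AA467197 (5.43). For Clec4a2, wild-type pool 1 held no count, and the other wild-type pools held 0.127 to 0.488 CPM against 10.7 to 12.6 CPM in the progerin pools.

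Of 16 genes known from resident-type macrophages 11 rose and 3 fell (median 2.08). Lyve1, a hyaluronan receptor of such cells and of lymphatic endothelium, was at 6.13, 9.87, 8.98 and 9.75 CPM in wild-type control and 34.3, 34.5 and 28.5 CPM in ubiquitous progerin. The transcription factor gene Maf rose by 2.78 ± 0.22 on the log2 scale. The 3 members that fell were Gas6, Stab1 and Cbr2. Gas6, a ligand of the receptor Axl, fell from 432 to 484 CPM down to 231 to 279 CPM. Stab1 and Cbr2 fell by 0.33 and 0.39. Axl itself rose from 18.6 to 23 CPM up to 58.2 to 72.8 CPM.

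Complement, antigen presentation and lipid handling followed the same direction. Of 16 complement genes 12 rose and 2 fell. C1qa, a chain of the recognition protein C1q, was at 8.33, 10.2, 7.58 and 7.94 CPM against 204, 159 and 148 CPM, a log2 change of 4.32 ± 0.25. Cd55, the membrane-bound decay-accelerating factor, fell instead, from 43.3, 47.5, 44.5 and 51.8 CPM to 15.1, 16.1 and 14.0 CPM (-1.64 ± 0.10). Of 9 MHC class II genes 6 rose and 0 fell. Their chaperone Cd74 went from 70.7 to 94.5 CPM up to 490 to 695 CPM, whereas Ciita, the transactivator of the class, was at 2.13 to 4.85 and 1.93 to 6.99 CPM and did not pass.

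Of 20 foam cell and lipid-handling genes 15 rose and 1 fell (median 0.79), with 0 lower when wild-type pool 2 or 3 or progerin pool 1 or 3 was left out. Lpl, lipoprotein lipase, was at 60.3, 58.4, 71.6 and 72.0 CPM in the wild-type pools and at 256, 275 and 235 CPM in the progerin pools. The scavenger receptor Msr1 rose by 4.19 ± 0.29, and the cholesterol exporters Abca1 and Abcg1 rose by 0.71 ± 0.08 and 0.73 ± 0.07. Gpnmb, a glycoprotein of lipid-laden macrophages, varied between progerin pools, at 648, 244 and 463 CPM, all above the 25.9 to 51.6 CPM of the controls. Among 20 lysosomal genes 13 rose and 3 fell. The cathepsin genes differed among themselves: Ctss rose from 16.3 to 30.2 CPM up to 285 to 448 CPM and Ctsl from 347 to 406 CPM up to 815 to 1040 CPM, while Ctsh fell by 0.81 on the log2 scale.

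Marker lists of other cell types were read in the same pools. The 8 macrophage markers, all called higher, summed to 82.4 to 157 CPM in wild-type control and 950.5 to 1497 CPM in ubiquitous progerin. Neutrophil markers (4 of 5 tested higher) summed to 1.37 to 3.47 and 10.1 to 12.0 CPM, and T cell markers (1 of 6 tested higher, Cd4) to 7.49 to 11.5 and 11.1 to 24.1 CPM. Natural killer cell, mesothelial and skeletal muscle markers lay under 2 CPM in every pool, with Ncr1, Wt1 and Myh4 at 0 in all 7. Markers of general endothelium remained the most abundant, at 15530 to 16830 CPM in wild-type control and 14610 to 15390 CPM in ubiquitous progerin. Of these 8 markers 5 were lower and 1 higher. Most of the sum was Pecam1, which did not pass, with group means of 11610 and 11950 CPM. Adipocyte markers summed to 68.9 to 102 CPM and 122 to 288 CPM (1 of 7 called), and fibroblast markers to 916 to 1023 and 721 to 872 CPM (1 of 8 higher, 2 lower). The 2 lower fibroblast markers were Pi16 and Gsn, with group means of 207 and 59.0 CPM and of 551 and 425 CPM. Col14a1 was higher, and Pdgfra, Dpt, Lum, Dcn and Clec3b did not pass. The capillary sum was 18.2 to 25.9 and 100.3 to 130.3 CPM (4 of 6 tested higher, 0 lower). Most of it was Cd36, a scavenger receptor that macrophages also make, with group means of 16.4 and 98.5 CPM. Rgcc, Car4 and Gpihbp1 were also called higher, from means of 1.58, 0.526 and 1.10 CPM to 5.03, 1.38 and 3.90 CPM. The platelet sum (17.5 to 24 and 39.6 to 45.2 CPM) was higher through Itga2b and Pf4, while Gp9, Gp1ba and Ppbp did not pass, although Gp1ba was called lower without wild-type pool 4 or progerin pool 3 (log2 changes -0.612 and -0.66). What part such cells have in the gene lists was not tested.

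**Figure D2:**
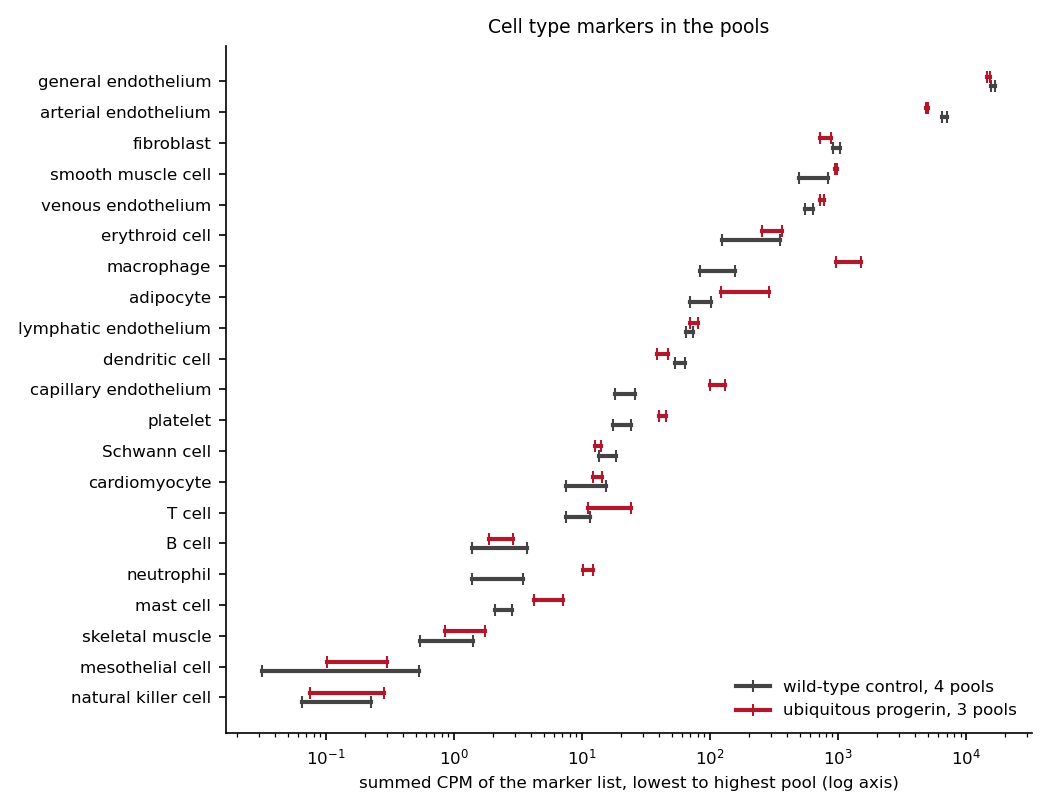
Summed CPM of 21 cell type marker lists (log x axis), drawn as the range from the lowest to the highest pool of each genotype. Sums of macrophage, neutrophil, mast cell, platelet, capillary, venous, adipocyte and smooth muscle markers lay apart and higher in ubiquitous progerin. Those of arterial and general endothelium, dendritic cells and fibroblasts lay apart and lower, with the general endothelial list above 14610 CPM in all 7 pools. Single genes weigh on these sums. The smooth muscle sum was higher through Tagln, with 3 of 8 markers called lower. The fibroblast sum was lower through Pi16 and Gsn. The dendritic cell sum was mostly Zbtb46, called lower, and Clec9a, which did not pass, while Flt3 was called higher.

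Endothelial genes fell by smaller amounts, from high levels. Of 25 surface and junction genes 18 fell and 3 rose, with a median log2 change of -0.42. Pecam1, an adhesion molecule found on all endothelium, did not pass (11230 to 12190 CPM against 11590 to 12360 CPM, log2 change 0.04 ± 0.05). What part the number of endothelial cells has in the falls was not tested. Icam2, which binds leukocyte integrins, was at 336, 291, 287 and 385 CPM in wild-type control and at 98.0, 85.6 and 94.7 CPM in ubiquitous progerin. The angiopoietin receptor Tek fell by 1.30 ± 0.06, the junctional cadherin Cdh5 by 0.62 ± 0.06 and Vwf, which carries clotting factor VIII, by 0.51 ± 0.06. Emcn, a sialomucin more common on veins and capillaries, rose from 135, 111, 112 and 98.6 CPM to 261, 261 and 247 CPM. Markers of arterial endothelium summed to 6449 to 7007 CPM in wild-type control and 4832 to 4985 CPM in ubiquitous progerin (5 of 8 lower, 2 higher). Those of venous endothelium summed to 546 to 629 and 714.5 to 769 CPM (2 of 5 higher, 1 lower). Clu made up most of the arterial sum, with group means of 4444 and 3700 CPM. Selp made up most of the venous sum, with group means of 397 and 574 CPM, and Lrg1 also rose. The venous marker Ephb4 fell, with means of 183 and 118 CPM, and Nr2f2 and Ackr1 did not pass.

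Arterial and Notch pathway genes were mostly lower, 13 of 20, with 5 higher (median -0.62). Gja5, which encodes the arterial gap junction protein connexin 40, was at 795, 841, 704 and 1030 CPM in the wild-type pools and at 140, 154 and 158 CPM in the progerin pools. No gene of this list fell further (-2.48 ± 0.10, adjusted p = 5.4e-12). The Notch ligands Dll1 and Jag1 fell from 81.3 to 136 CPM down to 34.2 to 44.6 CPM and from 135 to 162 CPM down to 56.6 to 63.4 CPM. The targets Nrarp and Hey2 fell by 0.90 and 0.66, while the receptor Notch1 rose by 0.46 and the target Hey1 by 1.03.

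Genes that respond to flow or act on vessel tone fell in 15 and rose in 3 of 25 (median -0.40). Klf2 and Klf4, transcription factors induced by laminar flow, were at 313 to 466 and 277 to 456 CPM in wild-type control and at 162 to 216 and 164 to 206 CPM in ubiquitous progerin. Nos3, endothelial nitric oxide synthase, was at 1159, 1140, 1015 and 1251 CPM against 790, 768 and 780 CPM (-0.55 ± 0.07). Thbd, the anticoagulant receptor thrombomodulin, fell by 0.99 ± 0.12. Cav1, the main protein of endothelial caveolae, fell from 2701, 2523, 2803 and 2715 CPM to 1035, 999 and 1064 CPM. The 3 higher members were Slc40a1, Npr3 and Ptgs1, named after their values were seen, and 5 were higher when wild-type pool 1 was left out. The call of Npr3 ended when any library of these groups but wild-type pool 1 was left out (adjusted p from 0.0644 to 0.0991).

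Other endothelial lists were lower or divided. Of 25 endothelial transcription factor genes 10 fell and 5 rose, with 2 higher when progerin pool 2 was left out. Sox7, Lyl1, Lmo2 and Elk3 fell by 1.21, 1.2, 1.04 and 0.75, and Gata2 rose from 294 to 342 CPM up to 443 to 495 CPM. The VEGF, angiopoietin and apelin list also holds PDGF genes and Egfl8. Of its 17 tested genes 10 fell and 2 rose (median -0.74), while Apln and Esm1 did not have enough counts to be tested. Pdgfa, a growth factor, fell from 48.4 to 54.3 CPM down to 15.8 to 17.9 CPM, and Angptl2 from 36.9 to 44.0 CPM down to 10.7 to 15.5 CPM. Coagulation and fibrinolysis genes were divided (6 of 18 tested higher, 8 lower): F2r, a thrombin receptor, rose from 298 to 311 CPM up to 612 to 647 CPM, and Plat, tissue plasminogen activator, rose by 1.10 ± 0.11.

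**Figure D3:**
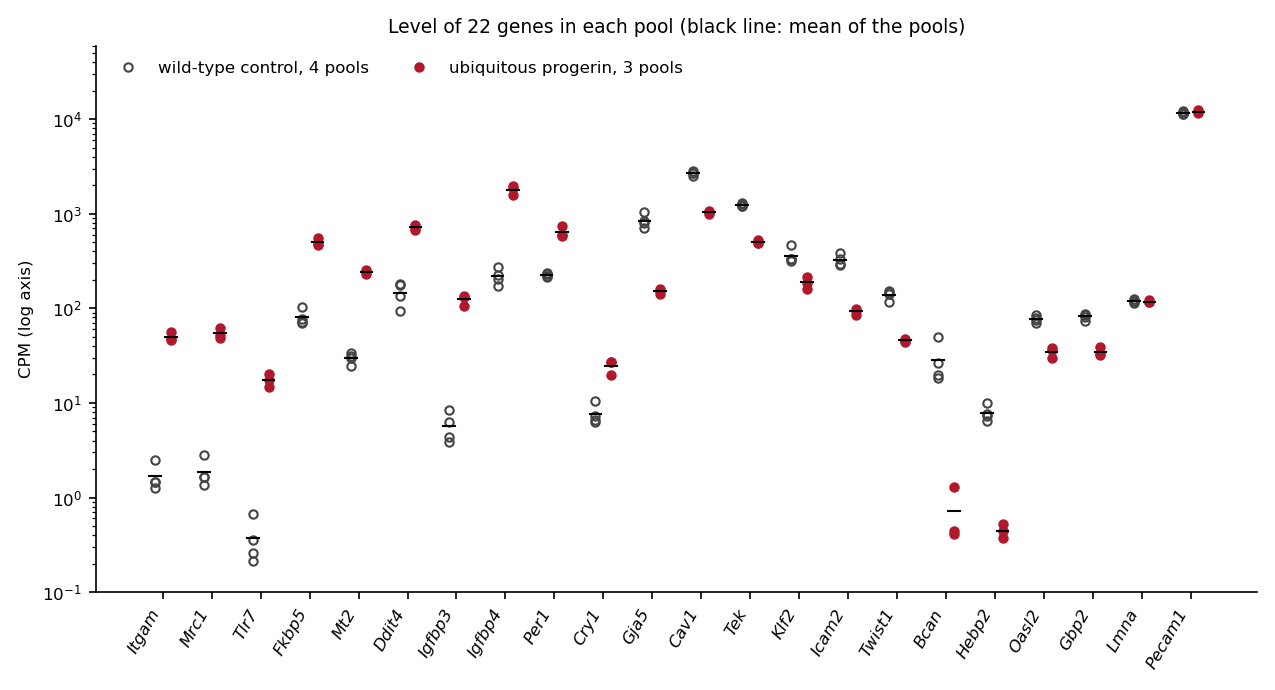
CPM (log y axis) of 22 genes in each of the 4 wild-type pools (open circles) and 3 ubiquitous progerin pools (filled circles), with the mean of each group as a line. The pools of both genotypes do not overlap for any gene shown except Lmna and Pecam1.

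Glucocorticoid-responsive genes rose. Glucocorticoids are steroid hormones of the adrenal cortex, and their receptor is a transcription factor that induces such genes in most tissues. Of 19 tested genes 16 rose and 2 fell (median 1.50). Fkbp5, a chaperone that restrains the receptor, was at 72.1, 69.7, 77.8 and 103 CPM in wild-type control and at 483, 558 and 464 CPM in ubiquitous progerin (2.64 ± 0.17, adjusted p = 6.4e-08). The metallothionein genes Mt1 and Mt2 were as distinct, Mt2 at 24.3, 33.5, 30.1 and 31 CPM against 233, 254 and 247 CPM. Ddit4, a stress-induced inhibitor of mTORC1, went from 93.6, 174, 134 and 183 CPM to 710, 768 and 669 CPM.

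Further members that rose were Tsc22d3, which encodes the anti-inflammatory protein GILZ (234 to 326 CPM against 850 to 911 CPM), the kinase gene Sgk1 (274 to 306 CPM against 512 to 621 CPM), and the transcription factor genes Zbtb16, Klf15 and Klf9 by 1.46, 1.71 and 0.90 on the log2 scale. Errfi1 and Lcn2 rose by 2.23 ± 0.16 and 2.90 ± 0.21. Nr3c1, the receptor gene itself, fell from 113 to 141 CPM down to 79.5 to 83.3 CPM, and Angptl4, a lipoprotein lipase inhibitor, fell by 1.27. Dusp1, a phosphatase that the hormone also induces, had overlapping pools (236 to 358 CPM and 257 to 317 CPM). Tat, of the same list, did not have enough counts to be tested.

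The same genes were then set against the other progerin model of the series. The difference was tested gene by gene as an interaction term in the same fit, between the change in ubiquitous progerin over wild-type control and the change in VSMC progerin over lamin C-only control, which share no library. Of all genes tested 6310 (44.2%) differed, 22.4% with a change that was more positive in ubiquitous progerin and 21.8% with one that was more negative. Of the 19 glucocorticoid-responsive genes 15 were more positive and 2 more negative, and the list's median change in VSMC progerin was -0.14. Fkbp5 changed by -0.19 ± 0.17 in VSMC progerin (adjusted p of the difference 1.4e-06), and Klf15 by -2.18 ± 0.37. Lcn2 rose in VSMC progerin by 2.85 ± 0.21, and its effects did not differ by the test.

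Clock genes were divided. Of 19 core clock and output genes 8 rose and 3 fell (median -0.03), and 5 fell in a fit of the 7 libraries alone. The rises were in genes of the negative and the positive limb. Per1, a repressor of the clock that glucocorticoids also induce, was at 228, 216, 218 and 237 CPM in wild-type control and at 577, 734 and 590 CPM in ubiquitous progerin. Cry1, the partner of the Per proteins, went from 7.33, 6.57, 6.21 and 10.4 CPM to 19.8, 26.8 and 27.3 CPM, and Arntl, which encodes the activator BMAL1, from 10.1 to 11.7 CPM up to 19.1 to 28.9 CPM. Dbp, an output gene, fell by 0.90 ± 0.25. Compared with the VSMC model, 13 of the 19 changes were more positive in ubiquitous progerin and 1 was more negative, while the list's median in VSMC progerin was -0.69. The 2 control groups also differed in level for some of these genes. Mean Arntl was 10.7 CPM in wild-type control and 21.7 CPM in lamin C-only control, against 25.1 CPM in ubiquitous and 29.3 CPM in VSMC progerin. Mean Per1 was 225 and 174 CPM in these controls, and mean Cry1 7.63 and 6.90 CPM. The part of the control levels in the differences was not tested. The labels give no time of day for tissue collection.

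Genes of IGF, insulin and FoxO signalling rose in 12 and fell in 6 of 24 (median 0.49). The secreted IGF-binding proteins stood out in level. Igfbp4 was at 171, 272, 227 and 203 CPM in wild-type control and at 1585, 1878 and 1941 CPM in ubiquitous progerin, and Igfbp3 was at 6.31, 4.39, 8.43 and 3.84 CPM against 132, 105 and 135 CPM. Irs2, an adaptor of the insulin receptor, rose by 3.24 ± 0.26. Foxo3 and its target Fbxo32 rose by 0.88 ± 0.10 and 1.10 ± 0.14. Igf2 fell from 89.5 to 117 CPM down to 28.2 to 30.3 CPM, and Igf2r, the receptor that clears it, fell by 1.06. In VSMC progerin, Igfbp3 changed by -0.08 ± 0.29 (adjusted p of the difference 5.9e-06).

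**Figure D4:**
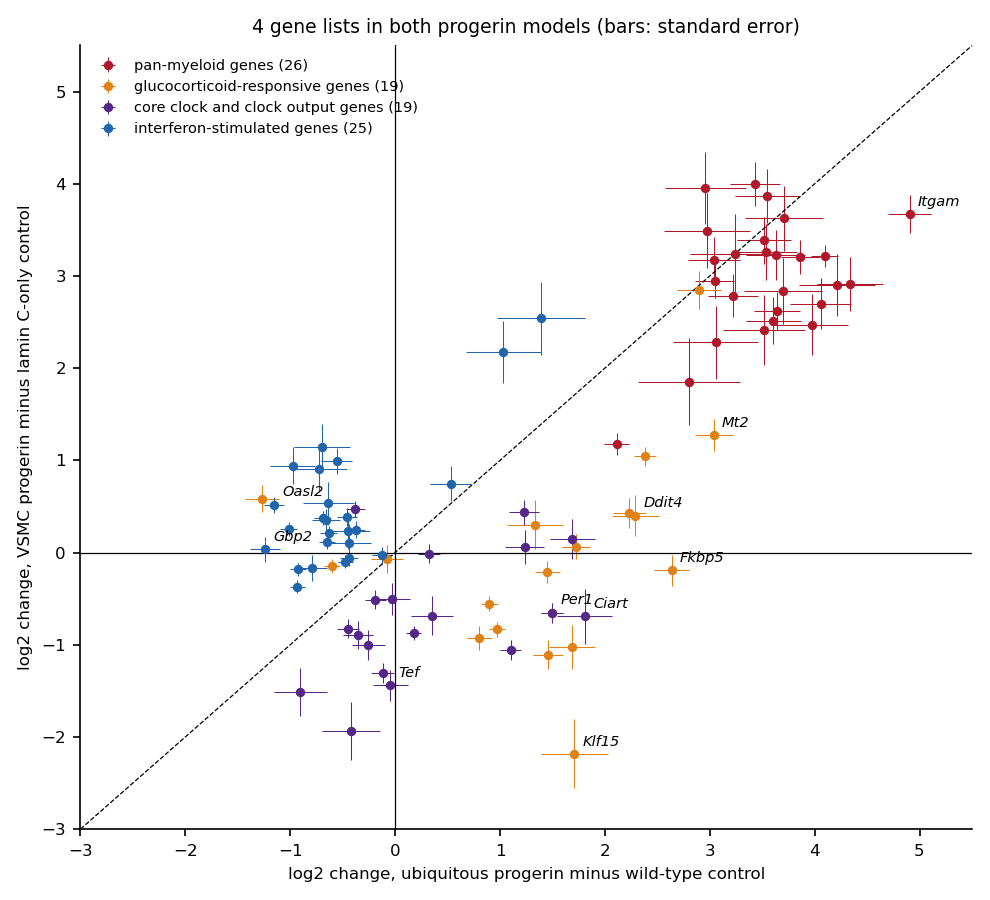
Log2 change in ubiquitous progerin over wild-type control (x axis) against log2 change in VSMC progerin over lamin C-only control (y axis), with standard errors, for the tested members of 4 lists; the dashed line marks equal change. Pan-myeloid genes lie high on both axes, glucocorticoid-responsive genes mostly to the right of the line and interferon-stimulated genes to the left of 0 on the x axis, except the 3 called higher.

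Interferon-stimulated genes fell. Of 25 tested genes 19 were lower and 3 higher (median -0.64). Oasl2, a member of the oligoadenylate synthetase family, was at 84.4, 70.7, 78.6 and 75.7 CPM in wild-type control and at 29.6, 38.3 and 36.2 CPM in ubiquitous progerin (-1.16 ± 0.09, adjusted p = 3.8e-09 by edgeR). All 3 progerin pools lay below the controls. Also lower were the RNA sensor gene Ifih1 by 0.92 ± 0.08, the transcription factor gene Irf1 by 0.93 ± 0.07, and Gbp2, a guanylate-binding protein gene, by 1.24 ± 0.14.

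The 3 higher interferon-stimulated genes were Irf7, Rsad2 and Zbp1, named after their values were seen. They varied between pools: Irf7 was at 30.6, 67.4 and 42.9 CPM in the progerin pools, and with pool 2 left out none of the 3 passed the test (log2 changes 0.175, 0.643 and 1.063). Leaving out each wild-type pool in turn also ended the call of Irf7, and that of Rsad2 without pool 1, 2 or 4. In the VSMC model the median change of the list was 0.26, and 19 of the 25 changes were more negative in ubiquitous progerin by the test of the difference, with 0 more positive. Oasl2 rose by 0.52 ± 0.09 there.

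Other inflammatory genes did not move as one. Of 20 NF-kappaB and cytokine genes 4 rose and 6 fell. Nfkbia, the inhibitor that NF-kappaB and glucocorticoids both induce, rose from 165 to 179 CPM up to 281 to 351 CPM. The receptor gene Il1r1, the subunit gene Relb and the adhesion molecule gene Vcam1 fell by 1.06, 0.94 and 0.83 on the log2 scale. Of 24 genes of the chemokine system 12 rose and 4 fell (median 1.91). Cxcr4, a receptor of leukocytes, rose by 3.5 ± 0.31, and Ackr3 and Ackr4, scavenging receptors of the vessel wall, fell by 1.97 ± 0.07 and 3.42 ± 0.34.

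Promoter sequences were read for motifs of transcription factors, and whether those factors act on these lists here was not tested. Windows came from RefSeq (GRCm38.p6) and ran from 250 bases before to 50 after a gene's start; 11166 of the tested genes matched one by symbol. The ISRE core GAAANNGAA, read on both strands, was in the windows of 12 of the 21 interferon-stimulated genes that had one (57.1%) and of 8.79% of all matched genes. The E-box CACGTG was in 5 of 16 clock genes (31.2%) against 11.1% of all, and ACANNNTGT, the core of the glucocorticoid receptor's palindrome (chosen after seeing the values), in 4 of 15 glucocorticoid-responsive genes (26.7%) against 5.43%. The CArG box, the site of serum response factor, was in 3 of 16 smooth muscle contractile genes (18.8%) and 3 of 19 immediate early genes (15.8%) against 1.59%. The PU.1-type site GAGGAAGT was in 0 of 18 pan-myeloid genes and in 3.81% of all. A match is a description of the letters only, and no match says nothing of the factor. The 200 bases before the start are given below, 5′ to 3′ on the gene's strand with the match in capitals, for the called genes with the smallest p whose match lay there. No match in them overlapped another of the motifs searched. The E-box is shown in the higher genes Per1 (chr11:69098749-69098948, plus strand) and Cry1 (chr10:85185055-85185254, minus strand). The palindrome core is shown in the higher genes Mt1 (chr8:94178889-94179088, plus strand) and Lcn2 (chr2:32387740-32387939, minus strand). The ISRE core is shown in the lower genes Ifih1 (chr2:62646256-62646455, minus strand) and Gbp2 (chr3:142620463-142620662, plus strand). The CArG box is shown in the lower genes Srf (chr17:46556163-46556362, minus strand), which has 2, and Myl9 (chr2:156775264-156775463, plus strand).
Per1: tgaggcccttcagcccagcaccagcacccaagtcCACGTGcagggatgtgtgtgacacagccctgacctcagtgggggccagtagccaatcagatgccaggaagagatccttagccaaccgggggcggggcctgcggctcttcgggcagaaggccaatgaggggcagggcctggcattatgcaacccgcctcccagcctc
Cry1: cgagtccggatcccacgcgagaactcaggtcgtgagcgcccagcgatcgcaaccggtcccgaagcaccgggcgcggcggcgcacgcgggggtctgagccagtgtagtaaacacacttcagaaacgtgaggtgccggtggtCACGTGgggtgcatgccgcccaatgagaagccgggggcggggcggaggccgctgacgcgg
Mt1: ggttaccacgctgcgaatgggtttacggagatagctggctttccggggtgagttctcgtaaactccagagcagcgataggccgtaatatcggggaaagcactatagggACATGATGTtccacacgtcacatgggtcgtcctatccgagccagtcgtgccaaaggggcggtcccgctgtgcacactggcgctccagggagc
Lcn2: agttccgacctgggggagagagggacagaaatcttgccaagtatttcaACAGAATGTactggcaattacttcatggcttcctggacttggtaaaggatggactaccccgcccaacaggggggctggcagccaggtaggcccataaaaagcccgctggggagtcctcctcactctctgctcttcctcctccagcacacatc
Ifih1: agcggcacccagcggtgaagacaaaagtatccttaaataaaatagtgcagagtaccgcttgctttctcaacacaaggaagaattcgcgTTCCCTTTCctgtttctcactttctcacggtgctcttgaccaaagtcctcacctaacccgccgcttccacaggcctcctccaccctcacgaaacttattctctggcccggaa
Gbp2: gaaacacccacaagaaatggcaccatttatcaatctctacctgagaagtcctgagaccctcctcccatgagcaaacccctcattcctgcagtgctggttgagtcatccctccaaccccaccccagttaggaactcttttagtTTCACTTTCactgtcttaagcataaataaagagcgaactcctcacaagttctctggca
Srf: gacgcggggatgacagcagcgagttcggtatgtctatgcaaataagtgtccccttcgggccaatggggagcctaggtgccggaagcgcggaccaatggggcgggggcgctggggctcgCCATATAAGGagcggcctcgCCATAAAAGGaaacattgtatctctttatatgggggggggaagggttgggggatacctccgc
Myl9: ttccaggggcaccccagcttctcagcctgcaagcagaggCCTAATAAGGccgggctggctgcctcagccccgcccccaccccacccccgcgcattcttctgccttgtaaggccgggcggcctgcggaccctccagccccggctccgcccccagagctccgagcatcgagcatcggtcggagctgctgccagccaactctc

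Genes of the mesenchymal transition, the process named in the series' title, were not moved in 1 direction. Of 28 genes 7 rose and 9 fell (median -0.01), which is near the background shares. Twist1, a transcription factor that drives the transition, was at 151, 116, 148 and 142 CPM in wild-type control and at 47.6, 45 and 44.5 CPM in ubiquitous progerin, and Snai2 fell by 0.91. Vim and Sparc, which mesenchymal cells make in quantity, fell by 0.59 and 0.65. Mmp14 rose from 33 to 37.5 CPM up to 85.7 to 95.3 CPM. With the Y-linked level as a covariate 4 genes of the list were higher. In the VSMC model the median of the list was 0.80, and 13 of the 28 changes were more negative in ubiquitous progerin by the test of the difference, with 3 more positive.

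Among 20 smooth muscle contractile genes 10 were lower and 2 higher (median -0.80), with 1 higher when progerin pool 3 was left out and 6 lower with the Y-linked covariate. Acta2, smooth muscle actin, was at 211, 318, 163 and 159 CPM in wild-type control and at 87.5, 82.0 and 108 CPM in ubiquitous progerin. Myh11 and Myl9, a heavy and a light chain of smooth muscle myosin, fell by 1.31 ± 0.39 and 0.96 ± 0.31. The call of Myh11 ended without progerin pool 1 (adjusted p = 0.0619 by edgeR), in the 7 libraries alone (0.0653) and with the Y-linked covariate (0.074). That of Myl9 ended without progerin pool 1 or 2 (0.0794 and 0.0674 by edgeR). The Myl9 call also ended with limma-voom (0.0515), and in edgeR with the pool number as a block (0.0579) and the Y-linked covariate (0.181). Srf, which induces such genes, fell from 39.7 to 55.4 CPM down to 22.8 to 23.6 CPM. Tagln, from the gene whose promoter is called SM22α, rose instead, from 247, 360, 216 and 208 CPM to 808, 776 and 738 CPM. The summed level of smooth muscle markers, which includes Tagln, was 492 to 830.5 CPM in wild-type control and 936 to 983 CPM in ubiquitous progerin, with 1 marker higher and 3 lower.

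TGF-beta and BMP genes were divided, 11 higher and 15 lower of 34. Among ligands, Bmp4 fell by 1.04 and Inhbb by 2.00. Among receptors, Acvrl1 fell from 357 to 441 CPM down to 250 to 254 CPM and the co-receptor Tgfbr3 rose from 66.2 to 78.9 CPM up to 153 to 179 CPM. Among signal transducers and targets, Smad3 fell by 1.06 ± 0.07 and Pmepa1 by 1.28 ± 0.07, while Id1, a target of BMP signals, rose by 1.04 ± 0.15. The YAP and TEAD list holds pathway members such as Yap1, Tead1 and Lats1 beside target genes, and of its 24 genes 6 rose and 10 fell. Its best-known targets went opposite ways: Ccn2 rose from 1052, 1090, 958 and 547 CPM to 1792, 1802 and 1936 CPM, and Ccn1 fell from 918, 1316, 918 and 674 CPM to 150, 201 and 332 CPM.

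Matrix genes fell more often than they rose. Of 22 basement membrane genes 14 fell and 3 rose (median -0.31). Lama3, a laminin chain, was at 47.3, 54.8, 35.3 and 53.9 CPM against 9.62, 9.16 and 9.88 CPM, and Col4a1 fell from 665 to 788 CPM down to 376 to 416 CPM. Nid2, which links laminin to collagen, rose from 1.30 to 2.73 CPM up to 19.3 to 21.6 CPM. Of 22 elastic fibre and proteoglycan genes 10 fell and 4 rose (2 higher with the Y-linked covariate). Eln, elastin, was at 2733, 4190, 3858 and 3938 CPM against 2266, 2163 and 2371 CPM, and the cross-linking enzyme gene Lox fell by 0.88. In the VSMC model Eln rose by 2.05 ± 0.13 (adjusted p of the difference 9.3e-08). Of 22 matrix protease and inhibitor genes 9 rose and 8 fell: the macrophage elastase Mmp12 rose from 5.62 to 15.4 CPM up to 74.4 to 112 CPM, Timp3, an inhibitor, fell from 1617 to 2180 CPM down to 742 to 784 CPM, and the sheddase genes Adam10, Adam15 and Adam17 fell by 0.92, 1.39 and 0.85.

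Of 17 genes of calcification and phosphate handling 4 rose and 7 fell. Mgp, an inhibitor of vascular calcification, fell from 1733 to 2086 CPM down to 1164 to 1305 CPM, and Kl, the co-receptor of a phosphate-regulating hormone, from 2.28 to 3.29 CPM down to 0.371 to 0.663 CPM. Ahsg, which encodes the circulating inhibitor fetuin A and is made mainly in liver, rose from 150, 125, 152 and 124 CPM to 482, 433 and 459 CPM. Trf, transferrin, of similar origin, rose by 1.32 ± 0.10, but the liver gene Serpina1b fell by 3.32 ± 0.46.

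Genes of the nuclear lamina and of prelamin A processing went both ways. Of 21 genes 5 rose and 9 fell (median -0.15), and the number higher was 2 or 3 when wild-type pool 1 or 4 or progerin pool 2 or 3 was left out. Zmpste24 was at 79.3, 81.6, 81.3 and 83.7 CPM in wild-type control and at 66.3, 71.1 and 72.1 CPM in ubiquitous progerin (-0.22 ± 0.06, adjusted p = 0.0054). Icmt, which methylates prelamin A after farnesylation, fell by 0.45 ± 0.07. Syne2, a nesprin that ties the nucleus to the cytoskeleton, fell from 259 to 330 CPM down to 108 to 120 CPM, and Syne1 by 0.76. Lbr, the lamin B receptor, rose by 0.34 ± 0.06. Lmnb1 had overlapping pools (11.5 to 19.9 and 9.82 to 13.5 CPM) and an adjusted p of 0.0455 by edgeR. This value went above 0.05 when wild-type pool 1 or 2 or progerin pool 1 or 2 was left out. The call also ended with DESeq2 (adjusted p = 0.0644), limma-voom (0.0779) and the deposited log2 values with limma (0.0585). In edgeR it ended with median-of-ratios scaling, the filter of over 1 CPM in 3 libraries, the 7 libraries alone and the Y-linked covariate.

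Of 22 p53 target and growth arrest genes 11 rose and 4 fell (median 0.20). Sesn1, an inhibitor of mTORC1, rose to 245, 301 and 245 CPM from 62.6 to 70.9 CPM, and in the VSMC model it fell by 0.95 ± 0.08. Cdkn1a, the cyclin-dependent kinase inhibitor p21, was at 36, 40.8, 34.7 and 58.8 CPM against 116, 192 and 113 CPM, and Pmaip1, a promoter of apoptosis, rose by 2.64 ± 0.21. Phlda3, another target of p53, fell from 98.3 to 129 CPM down to 34.5 to 40.9 CPM, and Trp53 itself fell by 0.52. Cdkn2a and Cdkn2b did not have enough counts to be tested. Of 27 cell cycle and replication genes 9 rose and 4 fell, but 5 rose without wild-type pool 4 or without progerin pool 3, and 3 with the Y-linked covariate. The cyclin gene Ccnd1 fell from 34.5 to 40.5 CPM down to 12.5 to 13.4 CPM.

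Stress, metabolic and developmental lists varied in how far they lay from the background. Rises and falls were 8 and 2 of 18 for endoplasmic reticulum stress and the amino acid response, 9 and 3 of 18 for NRF2 and redox genes, 8 and 7 of 22 for glycolysis and hypoxia, 3 and 8 of 21 for cholesterol synthesis, 9 and 5 of 24 for immediate early genes, 5 and 3 of 21 for Hox genes, and 3 and 12 of 24 for Wnt and Hedgehog genes. The cholesterol synthesis counts went down to 1 higher without wild-type pool 1 or progerin pool 2 and to 5 lower without progerin pool 1 or 3, and the Wnt and Hedgehog count went up to 5 higher without wild-type pool 1. Xbp1, a transcription factor of the unfolded protein response, rose from 123 to 140 CPM up to 271 to 305 CPM. Gclc, of glutathione synthesis, rose by 1.29 ± 0.08, and the glucose transporter gene Slc2a1 by 1.41 ± 0.08. Fosl2, a subunit of the transcription factor AP-1, went from 55.9, 69.7, 64.7 and 70.7 CPM to 269, 338 and 322 CPM, while Jun, another subunit, fell from 416 to 473 CPM down to 184 to 210 CPM. Fzd6, a Wnt receptor, fell by 1.06 ± 0.06.

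**Figure D5:**
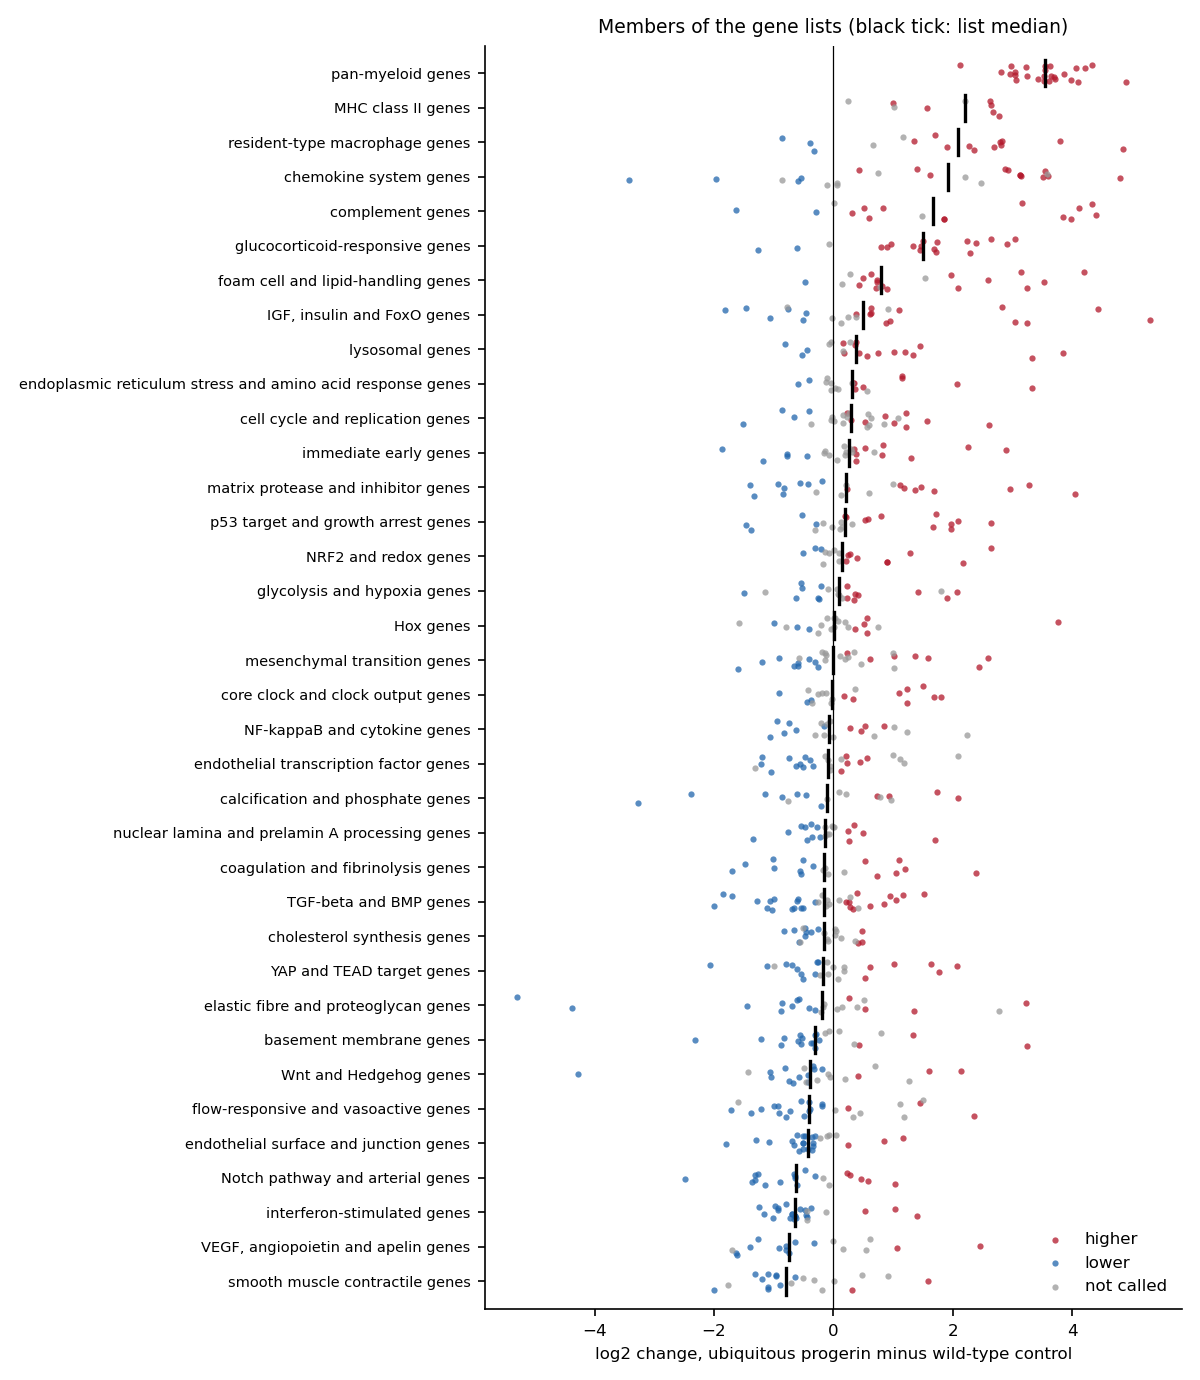
Log2 change (x axis) of each tested member of the 36 gene lists, coloured by call, with the list median as a black tick and the lists in order of that median. Medians run from -0.80 for smooth muscle contractile genes to 3.54 for pan-myeloid genes, and most lists hold members on both sides of 0.

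The 12 largest falls by the rule were not led by 1 cell type. Bcan, the proteoglycan brevican, was at 18.2, 26.2, 19.9 and 49.4 CPM in wild-type control and at 0.443, 0.408 and 1.29 CPM in ubiquitous progerin (-5.30 ± 0.51). Hebp2, a heme-binding protein, was at 7.58, 7.21, 6.38 and 9.87 CPM against 0.375, 0.445 and 0.524 CPM, and it changed by -0.01 in VSMC progerin. Klk10, a secreted protease, went from 177 to 294 CPM down to 23 to 32.4 CPM, and Plekha6 from 180 to 241 CPM down to 28.8 to 37.1 CPM. The others were the chemokine scavenger Ackr4, the receptor tyrosine kinase Ret, the serpin Serpina1b, the transcription factor Tcf23, the phospholipase Pla2g4f, and Rtp3, Kctd21 and Apol10b, with log2 changes of -2.70 to -3.47. The call of Ret ended with limma-voom (adjusted p = 0.283).

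By the same rule the largest differences between the 2 models included Hhipl1, Slc10a6, Tac2, Fmo2 and Igfbp3, which were higher in ubiquitous progerin and lower, or for Igfbp3 not changed by the test, in VSMC progerin. Fmo2, a flavin-containing monooxygenase, was at 1214, 926, 1258 and 1093 CPM in wild-type control and at 3834, 3720 and 3636 CPM in ubiquitous progerin, whereas its mean fell from 953 CPM in lamin C-only control to 129 CPM in VSMC progerin. Ret, Serpina1b and Galnt18 were lower in ubiquitous progerin and higher in VSMC progerin. Cmah and St14 did not pass in ubiquitous progerin and rose in VSMC progerin. Pan-myeloid genes rose in both models, with a median of 3.06 in VSMC progerin, and 9 of the 26 rose further in ubiquitous progerin by the test of the difference.

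Bcan lies on chromosome 3 within 5 Mb of Lmna. Around Lmna the share of genes called was close to that elsewhere: 57.0% of 128 genes within 5 Mb, 55.3% of 208 genes at 5 to 20 Mb, 53.8% of 353 genes further along chromosome 3 and 54.6% on the other chromosomes. Shares by level differed more. With the genes cut into 4 equal groups by mean log2 CPM, 23% were called higher and 10.6% lower in the lowest group, and 31.6% and 37.6% in the highest. Across 4 groups cut by exonic length the shares ran from 25.4% to 27.6% higher and from 22.6% to 31.5% lower.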

How the data were processed

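RNA of the aortic intima was sequenced in 14 libraries, 7 of them in the comparison described. Per the labels' protocols, 100 ng of total RNA per pool were used for directional poly(A) libraries. STAR 2.7.10b and RSEM 1.2.28 are named in the submitters' processing notes, with cutadapt 4.1, limma, Trim Galore 0.6.10 and the build GRCm38. Annotation release, strandedness in counting and filters: not given in the sources used here. RSEM shares reads between near-identical genes and isoforms, so members of gene families are less certain. The authors deposited estimated counts per gene made with RSEM, not normalised, per the submitters' processing notes; they were rounded to whole numbers here. The authors also deposited normalised log2 values, which served only as an alternative.

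Genes were kept by edgeR's filterByExpr (minimum count 10, minimum total 15, minimum proportion 0.7). All 14 libraries were fitted in 1 model with TMM scaling and robust edgeR quasi-likelihood tests (edgeR 4.0.16, limma 3.58.1, R 4.3.3), so that all groups share 1 estimate of the spread. Adjusted p-values are Benjamini-Hochberg values over the 14269 genes tested. The fit was tested on simulated counts in which far fewer genes changed than were called here. That simulation does not show how the scaling or the error rate behaves with so many changes. Log2 CPM values, used for mean levels and ranges, have a prior count of 2, and CPM values have none. Alternatives were other scalings and filters, DESeq2 1.42.0, limma-voom, the deposited log2 values, the 7 libraries alone, a replicate block and leaving out each pool. Gene symbols were those of the table, and coordinates came from GENCODE M21.

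Named genes are Lmna and Apoe; the 12 higher and 12 lower called genes of largest change with mean log2 CPM of at least 2 and ranges that do not overlap, predicted genes left out; up to 4 called members of each list by smallest p; and the 6 and 6 genes with the largest difference between both models. Further genes were chosen after their values were seen. A few genes that the rule chose are not reported here. The members and lists were chosen with earlier results of these data known. Xist and Y-linked genes are not reported one by one.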

Additional observations from a re-analysis of the deposited data

Results flagged for a closer look

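Among 291 measures checked in the 4 wild-type pools, 14 had a pool that lay further from the others than Dixon's 95% value allows, and chance alone gives about 1 in 20. Wild-type pool 1 had counts for 14328 genes. It was also the pool apart for Itgam (2.5156 CPM), Slc7a8 (0.95665 CPM), Vim (3297.1 CPM) and Hoxd4 (42.553 CPM), where it was highest, and for Atp6v1b2 (48.754 CPM), where it was lowest. Pool 2 was highest for Robo4 (13.199 CPM). Pool 3 was highest for Plk2 (108.59 CPM) and Cd36 (21.992 CPM). Pool 4 was highest for Ctsh (1265 CPM), Entpd1 (295.56 CPM), Adam10 (398.78 CPM), Klf2 (465.87 CPM) and Phlda3 (128.9 CPM). The calls of these genes held without that pool.

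The test of the difference between the change in ubiquitous progerin and that in VSMC progerin was passed by the 11 genes given here, which the naming rule chose for the size of that difference. On the log2 scale the difference was 4.964 for Hhipl1, 4.85 for Slc10a6, 4.81 for Tac2, 4.615 for Fmo2 and 4.514 for Igfbp3. It was -6.747 for Ret, -6.602 for Cmah, -5.499 for Serpina1b, -4.489 for St14 and -4.396 for Galnt18. For Mup22 the fitted difference was -12.131, but this gene had no count in any ubiquitous progerin pool, so the value depends on the prior count and is no measured fold. The difference for Mup22 lost its call without wild-type pool 4 (adjusted p = 0.057 by edgeR) and with the pool number as a block (0.0732), and those of Mup22 and Ret lost it with limma-voom (adjusted p of 0.216 and 0.0616).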

How the results depend on the processing

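Over 17 alternative settings the number of genes called ranged from 6118 to 7965, and the share of calls that were higher from 47.7% to 51.1%. No gene called in the reported fit was called in the opposite direction in any of them. Of the 266 named genes, 11 lost a call in at least 1 setting: Npr3, Irf7, Rsad2, Zbp1, Myh11, Myl9, Lmnb1, Ret, Ccna2, Cldn5 and Dbp, the last 3 only with the Y-linked covariate. Apoe passed the test in the 7 libraries alone (adjusted p = 0.0345 by edgeR), and Gp1ba there and with the block (0.05 and 0.0356). Genes that did not pass changed sign in 7 cases. Lmna had log2 changes of 0.003 with median-of-ratios scaling and 0.003 with DESeq2, and -0.048 to 0.001 when 1 pool was left out. Dusp1 had 0.113 with the Y-linked covariate and -0.179 to 0.028 when 1 pool was left out. Ciita had -0.184 to 0.604 and Gp9 -0.577 to 0.029 when 1 pool was left out. The cause was not tested. Of 1224 list counts 35 moved by more than 1.5 times, and those of lists led with are given beside them.

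The labels number the pools in each group, but nothing says that a number pairs pools of different groups, and same-numbered pools did not deviate together (correlations of 0.004, -0.046 and 0.016). With the pool number as a replicate block, 7536 genes were called, 3649 higher and 3887 lower. For named genes the block ended the calls of Irf7 (adjusted p = 0.0658 by edgeR) and Myl9 (0.0579), and that of the difference for Mup22 (0.0732). Depth limits the lowest genes: genes under 1 CPM rest on few counts, and folds against such levels are imprecise. With 3 and 4 pools per group, p-values rest on a spread shared over genes.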
